A study of Mus musculus with 10 samples.

Results

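The 10 genes of the TGF-beta system were measured in whole lung of wild-type and p53-null mice: the ligands Tgfb1, Tgfb2 and Tgfb3, the receptors Tgfbr1, Tgfbr2 and Tgfbr3, the latent binding proteins Ltbp1 and Ltbp2, and the intracellular SMADs Smad3 and Smad7. They were chosen by name, as every non-control probe whose gene name or current symbol was one of these 10, out of 27670 gene names on the array. They were read by 17 of the 41174 non-control probes, in 26 spots, and all 10 genes were among the 21116 tested. The groups were 5 wild-type C57BL/6J mice and 5 p53-null mice that the labels place on the same C57BL/6J background. All were males of 8 weeks that breathed aerosolized saline for 30 min before the lung was taken, so no untreated lung was measured. The labels name neither the p53 allele nor whether animals of the groups were littermates, and loss of p53 is not limited to any lung cell type by them. Each array held RNA of 1 sample, labelled with Cy3, and the series' design calls the 5 samples of a group biological replicates.

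TGF-beta ligands are secreted as latent complexes, in which the cleaved propeptide still covers the mature dimer, and latent binding proteins tie these complexes to the extracellular matrix. Once released, a ligand is bound by the type II receptor, which phosphorylates the type I receptor, and the type I receptor phosphorylates Smad2 and Smad3. These move to the nucleus with Smad4 and induce matrix genes and, in a feedback loop, Smad7, which blocks the receptor. In lung the pathway is known for its part in branching and alveolar development and in fibrosis.

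Because each gene was read by short probes, the sequences of those on which the comparisons turn are shown, 5′ to 3′ in lower case, with their positions on mm7 as the files give them. The Tgfb1 probe is shown whole because it is the only member probe printed in 10 spots. It is at chr7:22478890-22478949 on the plus strand.
Tgfb1: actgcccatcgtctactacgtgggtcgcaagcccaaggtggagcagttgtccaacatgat
The Tgfbr2 probe assigned to transcript NM_029575 is also shown whole, because its pattern differed from that of the brighter Tgfbr2 probe. It is at chr9:115782405-115782464 on the minus strand.
Tgfbr2, NM_029575: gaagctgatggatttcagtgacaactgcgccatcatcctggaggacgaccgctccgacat
The first 30 bases are given for the brighter Tgfbr2 probe (NM_009371, chr9:115760364-115760423, minus strand), for the Tgfb3 probe (NM_009368, chr12:84058334-84058393, minus strand) and for the 2 Tgfbr1 probes, which disagreed. The brighter Tgfbr1 probe is at chr4:47428363-47428422 and the dim one spans chr4:47420840-47424498, both on the plus strand.
Tgfbr2, NM_009371: tctagcggggaatttacagaatgctggtcc
Tgfb3: tcccatgtctgacatgatgactcggcccca
Tgfbr1, brighter probe: aaagtgtgagtgttacgttgctaagttact
Tgfbr1, dim probe: attccaaacagatggcagagctgtgaggcc
The dim Tgfbr1 probe has 60 bases like the others, so its placement spans a longer stretch of the genome than the probe itself. The place of these probes in exons or untranslated regions was not looked up, since no mm7 annotation was used here.

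Levels below are log2 signals relative to the 75th percentile of the array, which is 0, so a level of 1 is 2-fold above it. Differences are log2, p53-null minus wild-type, with the SE from limma (lmFit and eBayes) and a Benjamini-Hochberg adjusted p over all 21116 genes, n = 5 per group. A gene was represented by its brightest probe, and a call means an adjusted p under 0.05. Levels of different genes come from different probes and are not compared. Between 71.4% and 84.0% of spots per array were well above background, and the probes that represent the 10 genes were well above it on all 10 arrays. The number of arrays limits the precision.

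Wild-type array 5 stood apart. It lay outside the range of the other 4 wild-type arrays for 9 of the 10 genes and for 68.4% of all genes tested, whereas each other wild-type array did so for 30.6% to 36.2% of all genes. At the Trp53 probe printed in 10 spots it read -2.22, between the other wild-type arrays (-1.67 to -1.43) and the p53-null arrays (-3.15 to -2.66), and that probe's difference was -1.28 ± 0.16 (limma adjusted p = 0.00589 over probes). Its difference was -1.41 without wild-type array 5. A second Trp53 probe differed by 0.31 ± 0.28 (limma adjusted p = 0.504), and by 0.59 without that array. Differences and counts of calls are therefore given with and without it. The array was chosen for leaving out after its values were seen. Another array, wild-type array 3, was the only one scanned on a different day. It had 719 spots flagged as outliers, against 51 to 137 on each other array, and 12 saturated spots, against 0 to 3. It was also the highest array for Tgfb3.

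Of the 10 genes, 1 was called, Tgfb3, which fell, against 7.49% of all genes tested called in either direction, 2.89% called lower and 4.59% called higher in p53-null lung. Tgfbr1 and Smad7 had lower means in p53-null lung but did not pass, and 3 genes in all had an unadjusted limma p under 0.05. Without wild-type array 5, 4 of the 10 were called: Tgfb3, Tgfbr1 and Smad7 lower and Tgfbr3 higher. That share is to be read against 31.3% of all genes called without that array, 14.3% lower and 17.1% higher. Differences were below 0 for 6 genes and above 0 for 4, with a median of -0.14 over the 10 genes and 0.050 over all genes tested. In whole lung, fewer cells of a type and less RNA per cell cannot be told apart.

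**Figure D1:**
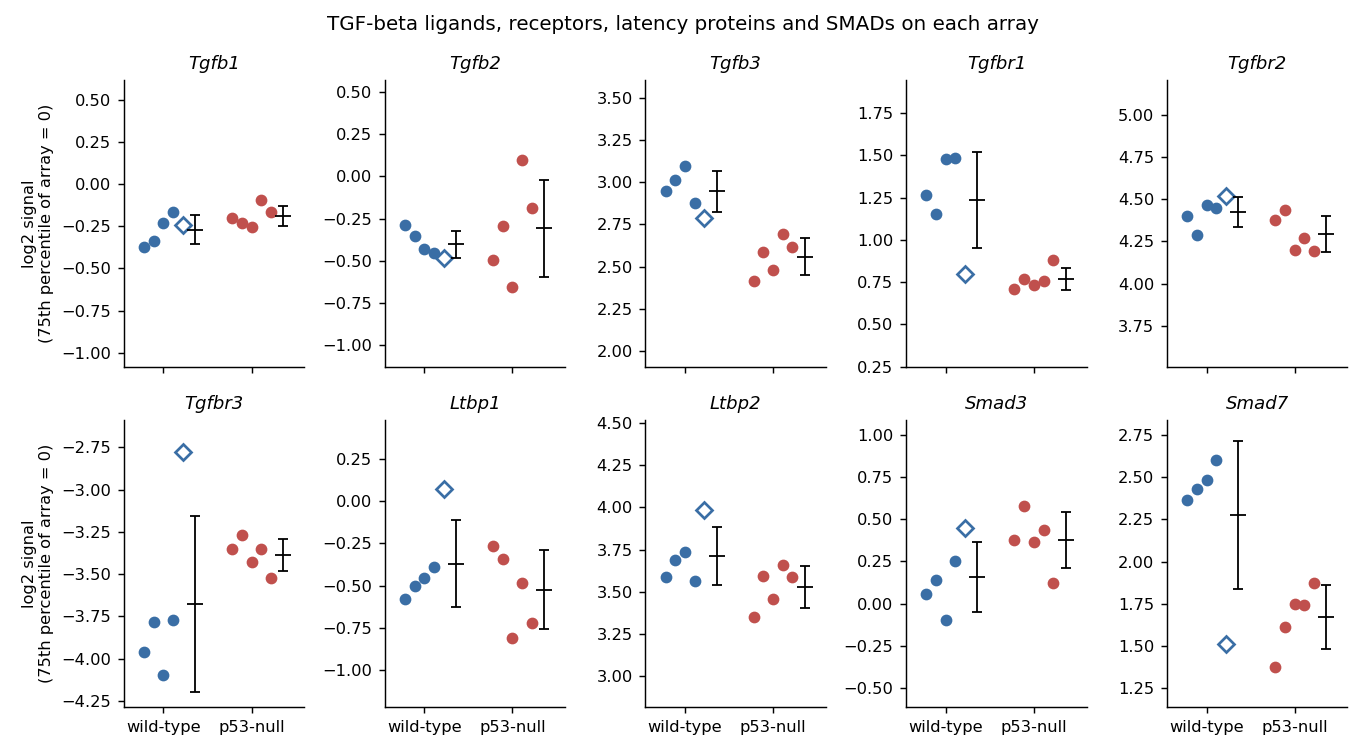
Log2 signal of each of the 10 genes on every array (75th percentile of the array = 0), wild-type in blue and p53-null in red, with mean and SD of the 5 arrays in black and wild-type array 5 as an open diamond; every panel spans the same log2 range. The groups are apart for Tgfb3, and wild-type array 5 sits among the p53-null arrays for Tgfbr1 and Smad7 and above all others for Tgfbr3.

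Among the ligands, Tgfb3 was lower in p53-null lung. It encodes the ligand known for its part in palate closure and lung maturation. Its levels were 2.95, 3.02, 3.1, 2.88 and 2.79 on wild-type arrays 1 to 5 and 2.42, 2.59, 2.48, 2.69 and 2.62 on p53-null arrays 1 to 5. All 5 p53-null arrays were below the lowest wild-type array, which was wild-type array 5. Tgfb3 was the only one of the 10 genes whose groups did not overlap; 9.32% of all genes tested had groups that did not overlap, 3.88% with p53-null lower. The difference was -0.39 ± 0.086 (95% interval -0.58 to -0.20, limma adjusted p = 0.0321), a level 1.31-fold higher in wild-type lung. Without wild-type array 5 it was -0.43 (limma adjusted p = 0.00466).

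The size of the Tgfb3 difference depended less on single arrays than its call did. In the 10 fits that each left out 1 array the difference lay between -0.43 and -0.35, but only the fit without wild-type array 5 made the call, the others giving limma adjusted p between 0.0521 and 0.0839. Over all 28 alternatives the adjusted p ran from 0.00306 to 0.793, and 11 made the call. These 11 include the fit on the series' value table, whose values equal the main input. The arrays came from 6 slides in 2 ranges of slide number. Wild-type arrays 2 and 5 shared a slide, as did p53-null arrays 1 and 4, and p53-null arrays 3 and 5. The only slide that held both groups had wild-type array 4 and p53-null array 2, and Tgfb3 differed there by -0.29. Within the lower range (wild-type arrays 1, 2 and 5, p53-null arrays 1, 3, 4 and 5) the difference was -0.37 ± 0.11. It was -0.40 in the higher range, with p53-null array 2 and wild-type arrays 3 and 4. With the range as a block it was -0.38 (limma adjusted p = 0.0582).

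Tgfb1 encodes the ligand most linked to fibrosis and immune regulation, and is made by many cell types, platelets included. Its levels were -0.37, -0.34, -0.23, -0.16 and -0.24 on wild-type arrays 1 to 5 and -0.20, -0.23, -0.25, -0.10 and -0.17 on p53-null arrays 1 to 5. The groups overlapped, with wild-type arrays 1 and 2 lowest. The difference was 0.08 ± 0.069 (95% interval -0.074 to 0.24, limma adjusted p = 0.489), and 0.087 without wild-type array 5. The probe's single spots on an array varied with an SD of 0.036 to 0.092 log2 units. An array's value is the mean of these spots and so is more precise than a single spot. Between animals these means had an SD of 0.084 for wild-type and 0.061 for p53-null arrays. With the trend of signal on probe GC content removed the sign turned, to -0.11 ± 0.13.

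Tgfb2, whose product needs the co-receptor for tight receptor binding, had levels of -0.29, -0.35, -0.43, -0.46 and -0.48 on wild-type arrays 1 to 5. On p53-null arrays 1 to 5 they were -0.49, -0.29, -0.65, 0.10 and -0.19. The p53-null arrays spread over more than the whole wild-type range, from below it to above it. The difference was 0.095 ± 0.13 (95% interval -0.20 to 0.39, limma adjusted p = 0.691), and -0.0061 without p53-null array 4. That array and p53-null array 5, the 2 highest for Tgfb2, were also 2 of the 3 arrays with high skeletal muscle markers, whose mean levels were 2.44 and 2.21 there, 3.22 on wild-type array 2 and -2.35 to -1.38 on the other 7. Without those 3 arrays Tgfb2 differed by -0.066 (limma adjusted p = 0.812; 0.405 to 0.980 over its alternatives). The arrays left out include the 2 highest for Tgfb2, both p53-null, so the p53-null mean had to fall. Wild-type array 2, with the highest muscle markers, read -0.35 for Tgfb2. The part of muscle tissue in this spread was not tested.

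No receptor was called over all arrays, and the sign of the difference varied between receptors and between probes of a receptor. Tgfbr1 encodes the type I receptor kinase that phosphorylates Smad2 and Smad3. Its brightest probe read 1.26, 1.15, 1.48, 1.48 and 0.80 on wild-type arrays 1 to 5 and 0.71, 0.77, 0.73, 0.76 and 0.88 on p53-null arrays 1 to 5. Wild-type arrays 1 to 4 were above all p53-null arrays, and wild-type array 5 was inside the p53-null range. The difference was -0.47 ± 0.13 (limma adjusted p = 0.0561; wild-type level 1.38-fold higher), and without wild-type array 5 it was -0.58 with an adjusted p of 0.00204 (0.00204 to 0.776 over its alternatives). It was -0.72 on the slide that held both groups, -0.30 ± 0.14 within the lower slide range and -0.72 in the higher.

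The second Tgfbr1 probe did not follow the first. It was dim, well above background on 3 wild-type and 4 p53-null arrays, with levels of -7.01 to -5.91 and -6.70 to -6.16. Its difference was 0.10 ± 0.20 (95% interval -0.34 to 0.55, limma adjusted p = 0.787 over probes), and 0.26 without wild-type array 5. With the gene as the mean of its probes, Tgfbr1 differed by -0.18 (limma adjusted p = 0.333).

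Tgfbr2, the type II receptor that binds the ligand first, was read by 2 measurable probes. The brighter one gave 4.40, 4.29, 4.46, 4.45 and 4.52 on wild-type arrays 1 to 5 and 4.38, 4.43, 4.20, 4.27 and 4.19 on p53-null arrays 1 to 5. These groups overlapped, with 3 p53-null arrays below all wild-type arrays. The difference was -0.13 ± 0.079 (95% interval -0.31 to 0.045, limma adjusted p = 0.314), and -0.11 without wild-type array 5.

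The Tgfbr2 probe assigned to NM_029575 gave -3.75, -3.88, -3.64, -3.68 and -2.56 on wild-type arrays 1 to 5 and -3.20, -3.06, -3.21, -3.32 and -3.40 on p53-null arrays 1 to 5. Wild-type array 5 was the highest of all and the other wild-type arrays were the 4 lowest. It differed by 0.27 ± 0.23 (limma adjusted p = 0.483 over probes), and by 0.50 without wild-type array 5 (limma adjusted p = 0.00378). The mean of the probes turned the sign of the Tgfbr2 difference, to 0.068 (limma adjusted p = 0.808). The remaining Tgfbr2 probe, assigned to AK090393, did not rise well above background anywhere and was not tested.

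Tgfbr3 encodes betaglycan, the co-receptor that presents ligand, Tgfb2 protein above all, to the type II receptor. Its levels were -3.96, -3.78, -4.10, -3.77 and -2.77 on wild-type arrays 1 to 5 and -3.35, -3.27, -3.43, -3.35 and -3.52 on p53-null arrays 1 to 5. As for the NM_029575 probe, wild-type arrays 1 to 4 were the lowest and wild-type array 5 the highest of all. The difference was 0.29 ± 0.22 (95% interval -0.20 to 0.79, limma adjusted p = 0.423), and without wild-type array 5 it was 0.52 with an adjusted p of 0.0035 (0.0035 to 0.803 over its alternatives). It was 0.50 on the slide that held both groups, 0.093 ± 0.28 within the lower slide range and 0.66 in the higher. Wild-type arrays 1 to 4 thus lay above the p53-null arrays for the brighter Tgfbr1 probe and below them for Tgfbr3. The share of all genes that separate in this way, with wild-type array 5 set aside, was not counted. That limit holds for these genes, the NM_029575 probe and Smad7. Without that array 31.3% of all genes were called.

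**Figure D2:**
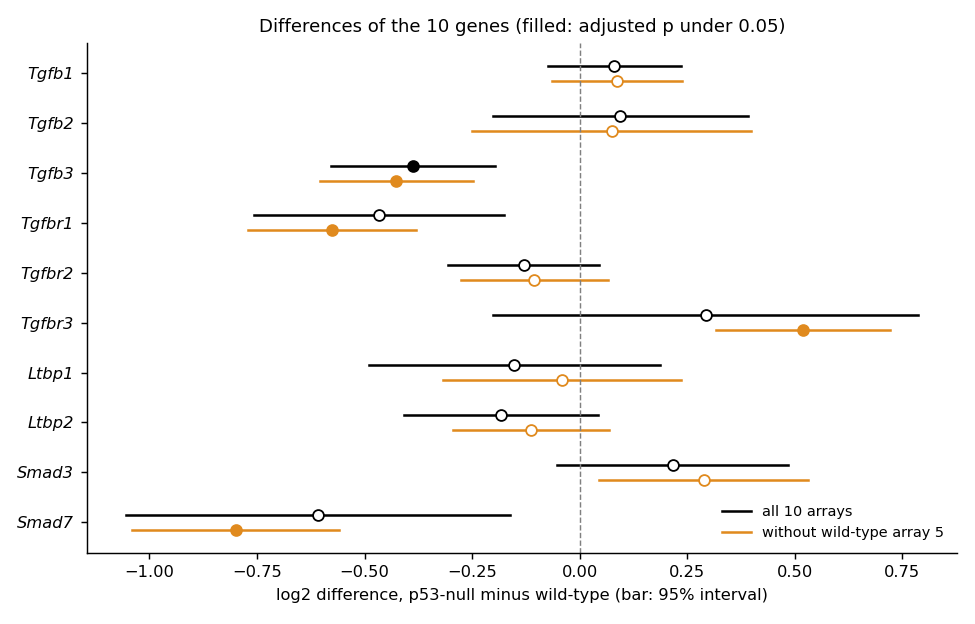
Log2 difference of each gene, p53-null minus wild-type, with its 95% interval, over all 10 arrays (black) and without wild-type array 5 (orange); filled points have a limma adjusted p under 0.05. Tgfb3 is filled in both, and Tgfbr1, Tgfbr3 and Smad7 only without that array.

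Neither latent binding protein was called. Ltbp1, which is linked covalently to latent TGF-beta and anchors it in the matrix, had levels of -0.58, -0.50, -0.46, -0.39 and 0.07 on wild-type arrays 1 to 5 and -0.26, -0.34, -0.81, -0.48 and -0.72 on p53-null arrays 1 to 5. Wild-type array 5 was the highest, and the other 4 wild-type arrays lay within the p53-null range. The difference was -0.15 ± 0.15 (95% interval -0.49 to 0.19, limma adjusted p = 0.554), and -0.041 without wild-type array 5. A second Ltbp1 probe, without wild-type array 4 where its spot had an outlier flag, differed by 0.084 ± 0.28 (limma adjusted p = 0.883 over probes). That probe differed by 0.41 without wild-type array 5 (limma adjusted p = 0.0679 over probes).

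Ltbp2 encodes a family member that is part of elastic fibre microfibrils and does not bind latent TGF-beta. Its levels were 3.59, 3.69, 3.73, 3.57 and 3.99 on wild-type arrays 1 to 5 and 3.35, 3.59, 3.46, 3.66 and 3.59 on p53-null arrays 1 to 5. Again wild-type array 5 was the highest, and the remaining arrays of the groups overlapped. The difference was -0.18 ± 0.10 (95% interval -0.41 to 0.042, limma adjusted p = 0.271), and -0.11 without wild-type array 5. A dim second probe filed under Ltbp2 (AK144083, well above background on 4 arrays of each group) differed by 0.52 ± 0.34, and by 0.65 without wild-type array 5, but the files place it on the plus strand and the brighter probe on the minus strand. Its value is therefore uncertain as a measure of Ltbp2.

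Of the SMADs, Smad7 had the lower mean in p53-null lung without passing the test. Its product is the inhibitory SMAD that binds the type I receptor and recruits ubiquitin ligases to it. Its single probe, placed on chromosome 18 from 75791017 to 75791076 on the plus strand (mm7), read 2.37, 2.43, 2.48, 2.60 and 1.51 on wild-type arrays 1 to 5. On p53-null arrays 1 to 5 it read 1.38, 1.61, 1.75, 1.75 and 1.87. As for Tgfbr1, wild-type arrays 1 to 4 were above all p53-null arrays and wild-type array 5 was inside the p53-null range.

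The Smad7 difference was the largest in size of the 10, -0.61 ± 0.20 (95% interval -1.05 to -0.16, limma adjusted p = 0.0867), a level 1.52-fold higher in wild-type lung. Without wild-type array 5 it was -0.80 with an adjusted p of 0.00132 (0.00132 to 0.776 over its alternatives). It was -0.99 on the slide that held both groups, -0.42 ± 0.25 within the lower slide range and -0.93 in the higher. The Smad7 probe had a GC content of 25%, the lowest among the 17 probes, and with the GC trend removed the difference was -0.67 (limma adjusted p = 0.285).

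Smad3, the receptor-activated SMAD that carries much of the transcriptional response, was read by 3 probes. The brightest gave 0.05, 0.14, -0.10, 0.25 and 0.45 on wild-type arrays 1 to 5 and 0.38, 0.58, 0.37, 0.44 and 0.12 on p53-null arrays 1 to 5. Wild-type array 5 was higher than all but 1 p53-null array, and p53-null array 5 lay among the other wild-type arrays. The difference was 0.22 ± 0.12 (95% interval -0.052 to 0.48, limma adjusted p = 0.275), and 0.29 without wild-type array 5 (limma adjusted p = 0.071). The probe assigned to BI646741, which has no position in the files, differed by -0.21 ± 0.19, and by -0.38 without wild-type array 5 (limma adjusted p = 0.0522 over probes). The other NM_016769 probe differed by -0.013 ± 0.12, and by 0.074 without that array, so its sign rested on wild-type array 5. The mean of the probes gave -0.0023.

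In all, 5 of the 10 genes had more than 1 probe. Of the 17 probes 16 were tested and 1, that of Tgfb3, was called, against 7.1% of the 31598 probes tested. In Tgfbr1, Tgfbr2, Ltbp1, Ltbp2 and Smad3 at least 1 tested probe had the opposite sign to the brightest over all arrays, and the 95% interval of every such probe included 0.

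**Figure D3:**
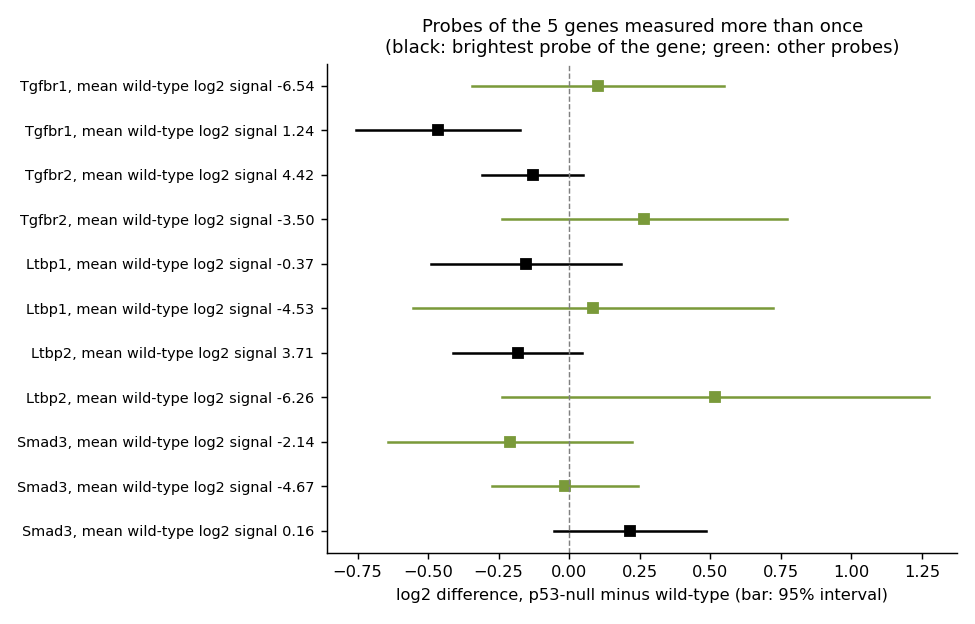
Log2 difference, p53-null minus wild-type, with its 95% interval for each tested probe of the 5 genes with more than 1 probe; black marks the brightest probe of a gene and green the others, and the label gives the probe's mean wild-type log2 signal. Of the 11 probes, only the brightest Tgfbr1 probe has an interval that leaves out 0.

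**Figure D4:**
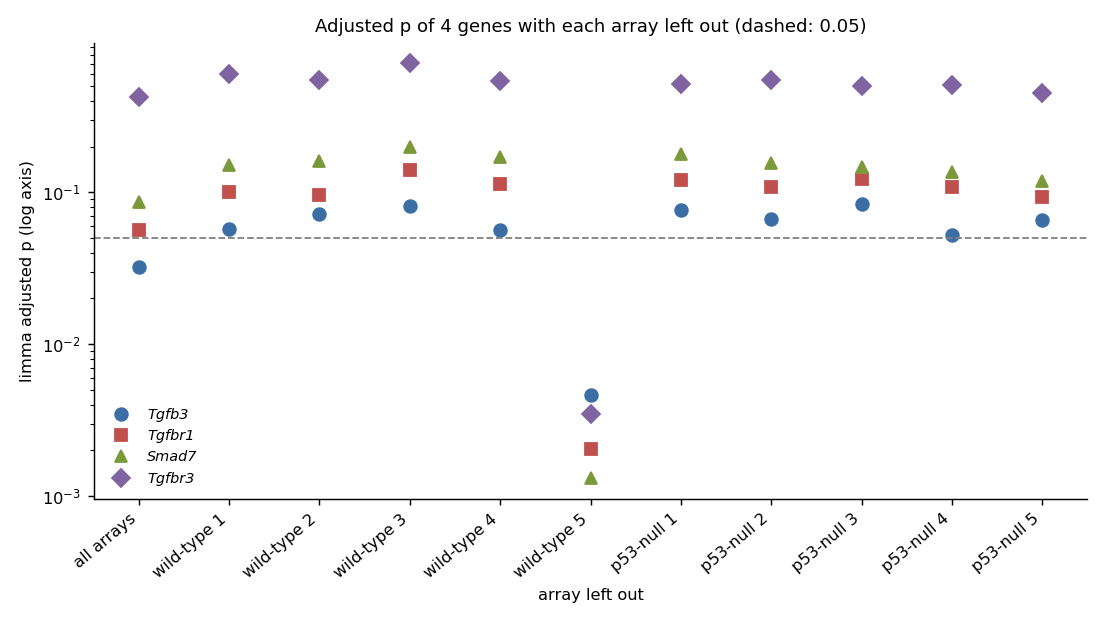
Limma adjusted p (log axis) of Tgfb3, Tgfbr1, Smad7 and Tgfbr3 with all arrays and with each array left out in turn; the dashed line is 0.05. All 4 genes lie under the line without wild-type array 5, in the other 9 left-out fits none does, and with all arrays Tgfb3 alone does.

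The genes whose levels followed the ligands most closely over the 10 arrays were taken as a description. For Tgfb3 these were Ppfibp1, a liprin-family scaffold gene, with a Pearson r of 0.983, Nucb1, which encodes a calcium-binding Golgi protein, at 0.983 and Tmem41a at 0.977. Nucb1 (-0.49 ± 0.091, limma adjusted p = 0.0209) and Tmem41a (-0.29 ± 0.074, limma adjusted p = 0.0445) fell, whereas Ppfibp1 differed by -0.13 ± 0.063 (limma adjusted p = 0.221). These differences were -0.54, -0.34 and -0.14 without wild-type array 5. For Tgfb2 they were the transcript ENSMUST00000079391 (0.941), Gpm6a, a membrane glycoprotein gene (0.930), and the fibrillin gene Fbn2 (0.899). For Tgfb1 they were Vps37b, of the endosomal sorting machinery (0.856), the transcript AK049762 (0.825) and the recycling-endosome GTPase gene Rab11b (0.817). The values for ENSMUST00000079391 and Fbn2 are over 9 arrays, since each lacked a value on 1 array. With wild-type array 5 left out the 9 values of r lay between 0.824 and 0.985. They are the highest of all genes tested over so few arrays, which share RNA, slide and scaling within each array, so they carry no test.

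The other genes of the pathway were described from 3 lists, chosen like the members with results of these data known. Among genes that hold, store or activate latent TGF-beta, 15 of 16 listed genes were on the array and tested, and 2 fell while none rose (2.89% and 4.59% of all genes), with a list median of -0.067. Fbn1 encodes fibrillin, the microfibril protein to which latent binding proteins attach. It read 1.75, 1.88, 1.97, 1.94 and 1.49 on wild-type arrays 1 to 5 and 0.78, 1.19, 1.19, 1.17 and 1.20 on p53-null arrays 1 to 5, with no overlap. Its difference was -0.70 ± 0.12 (limma adjusted p = 0.0174), or -0.78 without wild-type array 5, and a second probe gave -0.85 (limma adjusted p = 0.0271 over probes). The matrix proteoglycan Bgn, which can bind TGF-beta, fell (-0.55 ± 0.14, limma adjusted p = 0.0468), while a second Bgn probe differed by 0.11. Without wild-type array 5 Bgn differed by -0.50, and the list had 4 genes lower and 1 higher, beside 14.3% and 17.1% of all genes. Lrrc32, which anchors latent TGF-beta on regulatory T cells and platelets, was not found under that name.

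Among 26 other signalling genes 3 fell and 1 rose (2.89% and 4.59% of all genes), with a list median of -0.23. Smad6, the inhibitory SMAD of the BMP branch, fell from a range of 3.13 to 4.13 on wild-type arrays to one of 2.46 to 2.96 on p53-null arrays (-0.85 ± 0.18, limma adjusted p = 0.0308). Ski, a corepressor of SMAD complexes, ranged from 2.89 to 3.04 on wild-type arrays and from 2.58 to 2.77 on p53-null arrays (-0.31 ± 0.068, limma adjusted p = 0.0309). Other Ski probes gave -0.21 and -0.12. Acvr1, a type I receptor for BMPs and activins, fell (-0.52 ± 0.13, limma adjusted p = 0.0408). Tab1, the partner of the TGF-beta activated kinase, rose by 0.38 ± 0.091 (limma adjusted p = 0.0392), with levels of 2.23 to 2.59 on wild-type arrays and 2.60 to 2.84 on p53-null arrays. The differences of Smad6, Ski, Acvr1 and Tab1 were -0.91, -0.31, -0.51 and 0.44 without wild-type array 5. Of the 26 genes 9 were then lower and 4 higher, beside 14.3% and 17.1% of all genes.

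Of 18 genes known to be induced by TGF-beta, 6 fell and none rose (2.89% and 4.59% of all genes), with a list median of -0.25. They were the collagen genes Col3a1 and Col1a2, the matricellular gene Postn, the collagen cross-linking enzyme gene Lox, the elastin gene Eln and the protease inhibitor gene Timp1. Col3a1 read 4.70, 5.11, 5.22, 5.00 and 5.28 on wild-type arrays 1 to 5 and 4.05, 4.12, 3.92, 4.29 and 4.26 on p53-null arrays 1 to 5, with the lowest wild-type array above the highest p53-null array. Its difference was -0.94 ± 0.12 (limma adjusted p = 0.00892), but a second Col3a1 probe gave -0.52 (limma adjusted p = 0.322 over probes). Col1a2 ranged from 5.47 to 5.89 on wild-type arrays and from 4.64 to 5.08 on p53-null arrays, a difference of -0.82 ± 0.11 (limma adjusted p = 0.011). The differences of Postn (-0.58 ± 0.13, adjusted p = 0.0327), Timp1 (-0.72 ± 0.16, adjusted p = 0.0339) and Lox (-0.82 ± 0.19, adjusted p = 0.0349) were of like size in limma. Other Timp1 probes gave -0.67 and -0.60, and a second Postn probe -0.37. Col1a1, named after its values were seen, was not called by its brightest probe (-0.53, limma adjusted p = 0.0572). Other Col1a1 probes gave -1.06 (limma adjusted p = 0.00922 over probes) and -0.32 (limma adjusted p = 0.562 over probes), so its call depended on the probe. These Col1a1 values were -0.41, -1.03 and -0.023 without wild-type array 5. Without wild-type array 5 the differences were -0.88 for Col3a1, -0.85 for Col1a2, -0.67 for Postn, -0.78 for Timp1, -0.95 for Lox and -0.47 for Eln, and -0.25 for the second Col3a1 probe. Of the 18 genes 9 were then lower and 2 higher, beside 14.3% and 17.1% of all genes.

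The counts of these lists rested on single arrays, as did the count over all genes. With 1 array left out that count ran from 192 to 6619 of 21116 genes, the highest also without wild-type array 5. With each array left out in turn the count called, in either direction, ran from 0 to 5 for the latency list, 0 to 13 for the signalling list and 2 to 11 for the induced list, the highest always without wild-type array 5. Col3a1 and Col1a2 were called in all 10 of these fits and Fbn1 in 9. Eln kept its call in 3, Smad6, Acvr1, Ski, Timp1 and Lox in 2, and Bgn, Tab1 and Postn in 1. Some listed genes are expressed mainly by fibroblasts and smooth muscle, so a list's count does not measure TGF-beta signalling.

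**Figure D5:**
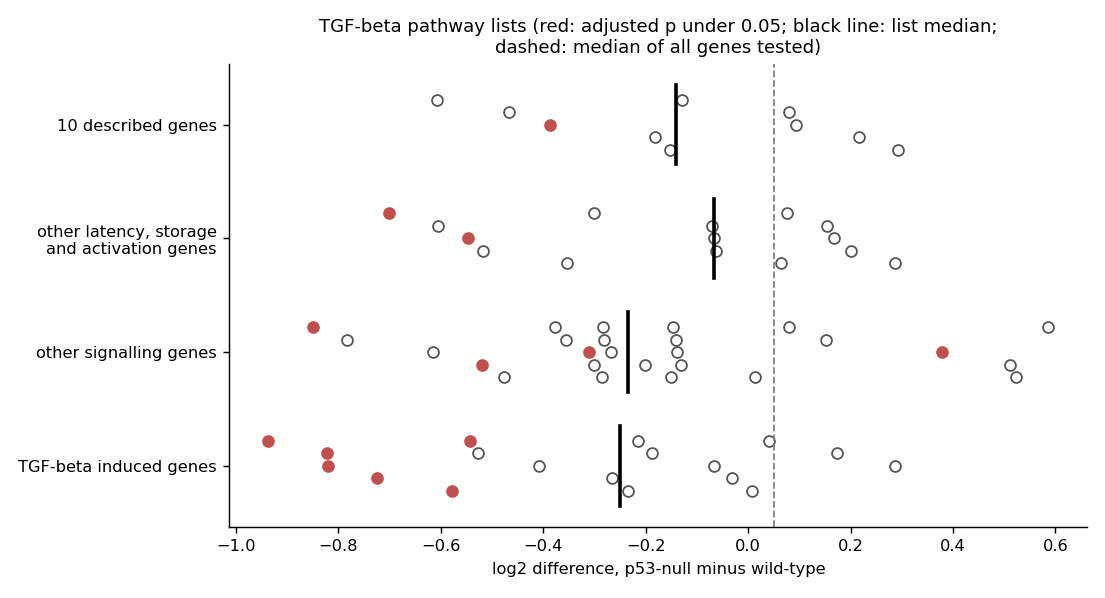
Log2 difference, p53-null minus wild-type, of the 10 described genes and of the tested genes of 3 further TGF-beta lists; red points have a limma adjusted p under 0.05, black lines are list medians and the dashed line is the median of all genes tested, 0.050. The 6 called genes of the induced list all lie left of 0; the height of a point within a list has no meaning.

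Markers of lung cell types were set beside these results. Their counts are to be read against 2.89% of all genes called lower and 4.59% called higher. Without wild-type array 5 these shares were 14.3% and 17.1%. Of 10 fibroblast markers 2 fell and none rose, and 3 differences were above 0. The 2, named after their values were seen, were Npnt (-1.04, or -1.21 without wild-type array 5) and Pdgfra (-0.50, or -0.61). The list's mean levels were 2.85 to 3.0 on wild-type and 2.65 to 2.78 on p53-null arrays, without overlap. Npnt and Pdgfra had the largest differences in that mean. The means of the latency, signalling and induced lists did not overlap either, and how often sets of other genes do so was not counted. The lower mean of the fibroblast list was in the direction of Tgfb3, Fbn1 and the collagen genes. The median difference was -0.16 for fibroblast markers and likewise -0.17 for endothelial markers. With each array left out in turn 0 to 3 of these markers were called, 0 in 7 of the 10 fits, and without wild-type array 5 Pdgfrb rose (0.28), named after its values were seen. Dcn is in both the fibroblast and the latency list. Smooth muscle markers had no call among 8 and levels that overlapped (2.61 to 3.18 and 2.80 to 3.09), and Acta2 and Tagln are in that list and in the induced list. Epithelial markers had no call among 10 (4.01 to 4.33 and 4.0 to 4.27), and endothelial markers had 1 lower of 10 (3.30 to 3.46 and 3.12 to 3.37).

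Blood cell markers moved the other way. Platelet markers, from cells rich in stored Tgfb1 protein, had 3 higher of 8, with levels of -1.38 to -0.60 on wild-type arrays and -0.73 to 0.50 on p53-null arrays. Neutrophil markers had 7 higher of 9 (-3.12 to -2.43 and -1.84 to -0.15), B cell markers 7 of 8 (-2.20 to -1.14 and -0.53 to 0.51, without Ms4a1, which lacked a value on wild-type array 3) and T and NK cell markers 6 of 10 (-2.31 to -1.55 and -1.44 to -0.94), with none lower in any of these 4 lists. These counts rested in part on single arrays, as did the count over all genes (192 to 6619 of 21116). With each array left out in turn the marker counts ran from 1 to 3 for platelet and 5 to 7 for neutrophil markers, 2 to 8 for B cell markers and 1 to 6 for T and NK cell markers. They were 3, 7, 8 and 6, all higher, without wild-type array 5. Macrophage markers had 1 higher and 1 lower of 9 (1.68 to 2.32 and 1.89 to 2.25), and 3 higher and 1 lower without wild-type array 5. Without that array endothelial markers had 3 lower, and smooth muscle and epithelial markers 1 higher and 1 lower each. Of all genes 14.3% were then lower and 17.1% higher. Skeletal muscle and squamous epithelium markers had no call among 9 and 7, with 3 and 2 arrays high. Every marker on the array was well above background on at least 1 array, so no list had a marker at 0. The part of these cell types in the differences of the 10 genes was not tested.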

How the data were processed

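Per the labels' protocols, Cy3-labelled cRNA from whole-lung total RNA was hybridised to Agilent arrays in 1 colour. The deposited intensity values are background-subtracted and detrended within each array by Agilent Feature Extraction 9.5, per the file headers and the submitters' processing notes. The series' value table equalled them (largest difference 0; column medians 278 to 502 over non-control spots), so it is linear, uncentred and unscaled.

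From these, log2 intensity was computed and set relative to the 75th percentile of 43379 non-control spots on each array, leaving out spots flagged as outliers. Spots of a probe were averaged, and the brightest probe stood for its gene. RefSeq's GRCm38.p6 gene table named 22951 of 41174 probes by accession, 6659 by symbol and 3109 by synonym; the array's own name was used for 8455. The test (limma 3.58.1, R 4.3.3; Benjamini-Hochberg, 0.05) took genes detected well above background on 5 or more of the 10 arrays. Simulated data with known changes were used to check the scripts' calls.

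The members and lists were chosen with earlier results of these data known. Named were Trp53, every member and probe, up to 5 called genes by smallest p from each further TGF-beta list, marker lists by count and level (the mean over genes with a value on every array), and the 3 genes most correlated with each ligand; Eln, the sixth called induced gene, was named after its values were seen. Alternatives covered background, scaling, filter, probe choice, outlier spots, value table, GC content, slide, replicate number, variance model, array weights, threshold and arrays left out. Replicate numbers did not pair the samples: same-numbered arrays' deviations from the group means correlated at -0.22 to 0.0013, with 0 of 5 over 0.1. P-values set each group difference against the spread between these samples, with variances moderated over all genes in the fit. No mm7 genome or annotation was used.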

Additional observations from a re-analysis of the deposited data

Results flagged for a closer look

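In 87 sets of 5 arrays (a gene, probe or list mean in 1 genotype), 12 held an array whose gap to its nearest neighbour passed Dixon's critical value of 0.71 of the range, where chance gives about 1 in 20. Wild-type array 5 stood apart for Tgfbr3 (-2.77, nearest -3.77), Smad7 (1.51, nearest 2.37), the Tgfbr2 probe of NM_029575 (-2.56, nearest -3.64), a dim Smad3 probe of NM_016769 (-4.32, nearest -4.69) and the second Trp53 probe (1.24, nearest 0.0063), all as log2 levels. On p53-null array 1, Fbn1 read 0.776 (nearest 1.17), Smad6 2.46 (nearest 2.82) and the mean of B cell markers 0.507 (nearest -0.248). Ski read 2.89 on wild-type array 1 (nearest 3.0). Wild-type array 2 stood apart for the means of skeletal muscle markers (3.22, nearest -1.38) and squamous epithelium markers (2.95, nearest -3.33), and p53-null array 5 for squamous epithelium markers (1.81, nearest -3.50).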

How the results depend on the processing

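Each of the 10 genes was recomputed under 28 alternatives. Some of these could not change a difference: the series value table, the filter settings, the replicate block and the trend and robust variance. Nor could the mean over probes for a gene with a single tested probe, such as Tgfb3, Smad7 or Tgfbr3. Tgfb3 kept its direction in all and its call in 11 (-0.55 to -0.29). Tgfbr1, Smad7 and Tgfbr3 also kept their direction and were called in 6, 4 and 4. The other 6 genes were called in none. Reversed differences were those of Ltbp1 with slide as a fixed block (0.046) and with GC trend removed and wild-type array 5 left out (0.037); Ltbp2 with the mean over probes (0.168) and the slide block (0.029); Smad3 with the mean over probes (-0.0023); Tgfb1 with GC trend removed (-0.111), the slide block (-0.064) and GC trend removed without wild-type array 5 (-0.214); Tgfb2 without p53-null replicate 4 (-0.0061, against up to 0.181 with any other array left out) and without the 3 muscle-rich arrays (-0.066); and Tgfbr2 with the mean over probes (0.068). The cause was not tested.

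Of the 10 genes, 0 were called by limma with normexp background and with median scaling (4 at an unadjusted p under 0.05 in each), 0 without a filter on dim probes, with GC trend removed, with slide range as a block, without the 3 muscle-rich arrays and at an adjusted p under 0.01 (3 in each), and 0 with slide as a fixed block (1). Well above background on all 10 arrays and trend and robust variance called 2 each; array weights, and GC removal or quantile normalization without wild-type array 5, both chosen after seeing the data, called 4 each. Leaving out 1 array gave 0 to 4.

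The 1581 genes called became 583 with median scaling, 538 without a filter, 731 with GC trend removed (558 higher, 173 lower), 0 with slide as a fixed block (1134 at an unadjusted p under 0.05), 697 with slide range as a block, 6516 with array weights, 10 without the muscle-rich arrays, 56 at an adjusted p under 0.01, 4650 with GC removal (1934 higher, 2716 lower) and 6430 with quantile normalization (3156 higher, 3274 lower) without wild-type array 5, and 192 (without p53-null array 3) to 6619 (without wild-type array 5) with 1 array left out. The 2245 probes called became 742 without a filter and 302 to 9684 with 1 array left out.

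With replicate number as a block, 26 genes (3998 at an unadjusted p under 0.05) and 0 of the 10 members (3) were called, Tgfb3 at -0.387 with limma adjusted p = 0.191; the numbers do not pair the samples.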
